A study of Mus musculus with 6 samples.

Results

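Myc and 7 genes of the immediate-early response were followed in mouse melanoma tumours: the transcription factor genes Egr1, Egr2, Egr3, Fos and Jun, and Dusp4 and Dusp6, which encode phosphatases that switch MAP kinases off. The 8 genes were taken by name from the 770 genes of the Mouse PanCancer Immune Profiling Panel, and all 8 were measured in all 6 samples. The panel is read on the nCounter instrument, on which coloured barcodes bound to RNA molecules are counted one by one, with no amplification. The tumours came from mice of a melanoma model with BrafV600E, in which melanomas were started at the age of 10 weeks with 4-hydroxy-tamoxifen put on shaved back skin. The 3 tumour samples labelled 4'-BR came from mice given 4′-bromo-resveratrol at 30 mg/kg into the peritoneum on 3 days a week for 5 weeks, and 3 samples were labelled Control. The Control samples carried BrafV600E too. The sources used here do not give what the Control mice received or which promoter drove the recombination. 4′-bromo-resveratrol (4'-BR) is a brominated analogue of resveratrol known to inhibit the sirtuins Sirt1 and Sirt3, which remove acetyl groups from proteins. The question was how treated tumours differed from Control tumours in these 8 genes.

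Activated Braf drives the kinases Mek and Erk, and Erk phosphorylates factors such as Elk1 that act with serum response factor at the promoters of Fos and the Egr genes. These immediate-early genes are switched on within minutes of a stimulus without new protein synthesis, and their products then act on later genes. Myc is a growth factor response gene of the same kind, and its protein drives ribosome production, metabolism and cell division. Dusp6 and Dusp4 are induced by Erk signalling and feed back on it, so their RNA is often read as a gauge of pathway output in Braf-mutant melanoma.

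Counts were lower in 4'-BR than in Control samples. Total counts over the 770 genes were 118221 to 254862 in 4'-BR and 322485 to 472402 in Control samples, and the geometric means of the 20 housekeeping probes were 221 to 435 in 4'-BR and 504 to 698 in Control samples. For the positive control probes, whose synthetic targets are added in equal amounts, they were 384 to 672 in 4'-BR and 651 to 757 in Control samples. Levels below are counts scaled by the housekeeping geometric mean. They rank samples for 1 gene and not genes against each other, because probes differ in efficiency. Raw counts of the 8 genes ran from 37, for Egr2 in 4'-BR 2, to 2849, for Dusp6 in Control 2, and each was at least 9.87 times the mean of the negative control probes of its sample. All 8 therefore passed the minimum mean raw count of 20 that 548 of the 770 genes reached. Of the melanocyte markers S100b, which other cells also express, was the 1 of 8 listed genes found on the panel, so the melanoma label could not be checked further.

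Myc rose and was the 1 member of 8 to pass the test. Egr3 was the next nearest, also on the higher side, whereas Fos and Egr2 lay on the lower side without passing, and Egr1, Jun, Dusp4 and Dusp6 overlapped between the groups. A gene passed with a Benjamini-Hochberg adjusted p under 0.05 in edgeR's quasi-likelihood test over 548 genes. By that rule 6.93% of all genes tested were called, 1.28% higher and 5.66% lower in 4'-BR. The members gave 1 call on the higher side and 0 on the lower side, and 3 of 8 had an unadjusted p under 0.05, against 23.4% of all genes. Their log2 fold changes ran from −1.21 to 0.79 with a median of −0.13, beside a median of −0.04 over all genes tested. Groups did not overlap for 4 members, Myc and Egr3 on the higher side and Egr2 and Fos on the lower side, against 30.5% of all genes (12.6% higher, 17.9% lower).

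**Figure D1:**
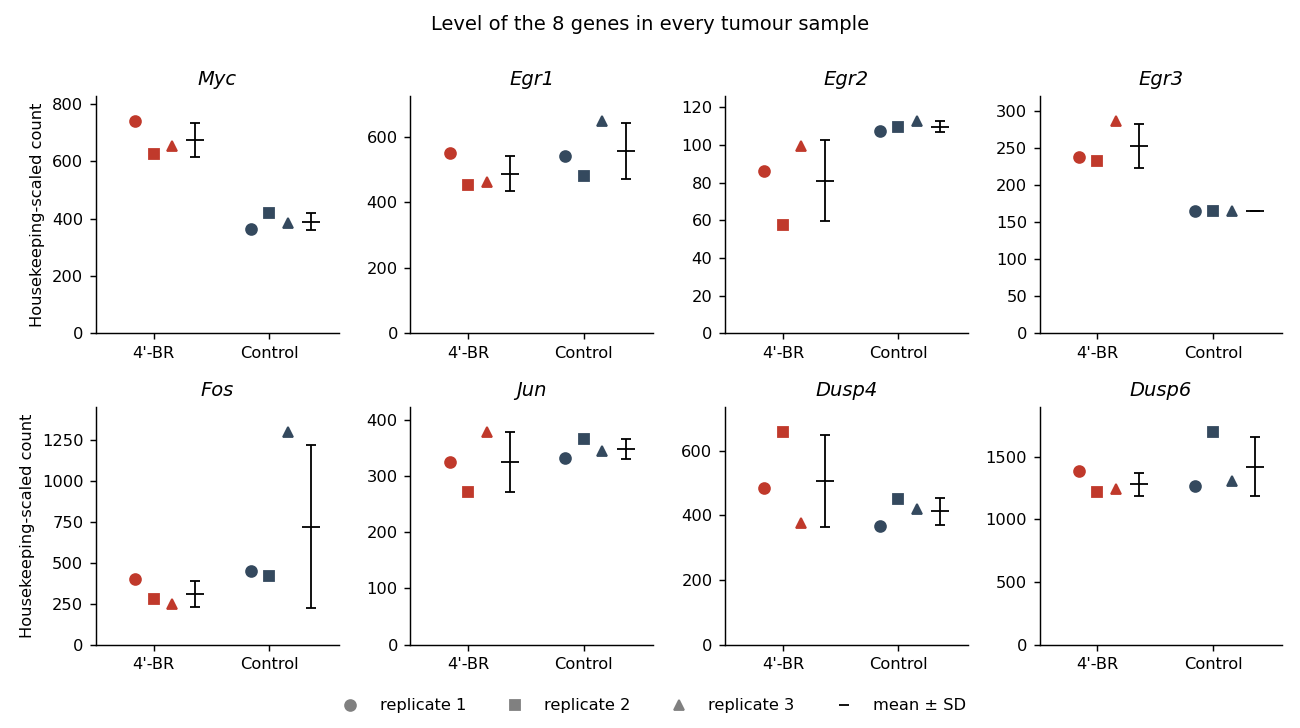
Housekeeping-scaled count (y axis, from 0) of each of the 8 genes in the 3 4'-BR and the 3 Control samples. Symbols mark the replicate numbers, and the black bar is the mean ± SD of 3 samples. Myc and Egr3 sit higher in every 4'-BR sample, Fos in Control 3 stands at 1294 and Dusp4 in 4'-BR 2 at 658.

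Myc had 741, 627 and 653 scaled counts in 4'-BR samples, against 363, 420 and 384 in Control samples. The lowest 4'-BR sample lay well above the highest Control sample. The means were 673 ± 59.7 in 4'-BR and 389 ± 29.2 in Control (SD, n = 3 each), a log2 fold change of 0.79 with a standard error (SE) of 0.15, or 1.73-fold higher (edgeR adjusted p = 0.0356). By p-value Myc ranked 7 of 548. Its raw counts were 775, 403 and 348 in 4'-BR against 440, 707 and 525 in Control samples, which overlap, so the difference appears only relative to the other RNA of each sample. When single samples were left out, Myc stayed at 0.72 to 0.85 but passed only without Control 3 (adjusted p = 0.0491), with an adjusted p of 0.0531 without Control 2, 0.0648 without Control 1, 0.07 without 4'-BR 2, 0.102 without 4'-BR 3 and 0.133 without 4'-BR 1. With positive control scaling it was at 0.17 (adjusted p = 0.584), beside −0.67 for the median gene.

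Because the scaling bears on Myc, it was also set against each housekeeping probe in turn. These are the same 20 probes that set the scaling. Such ratios show how much a single probe matters, and they cannot show a change shared by all 20. The log2 ratio of Myc to a housekeeping probe was higher in 4'-BR for all 20 probes, by 0.42 to 1.18, and the groups did not overlap for 19 of the 20. The exception was Gusb, the gene of a lysosomal glucuronidase. Egr3 did likewise for the same 19 of 20 probes, by 0.24 to 1.00. Fos was lower against all 20 probes and Egr2 too, without overlap for 12 and 11 of them. Egr1, Jun, Dusp4 and Dusp6 took either sign depending on the probe. The housekeeping genes themselves lay between −0.38 and 0.37 in the fit, and 0 of 20 passed.

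**Figure D2:**
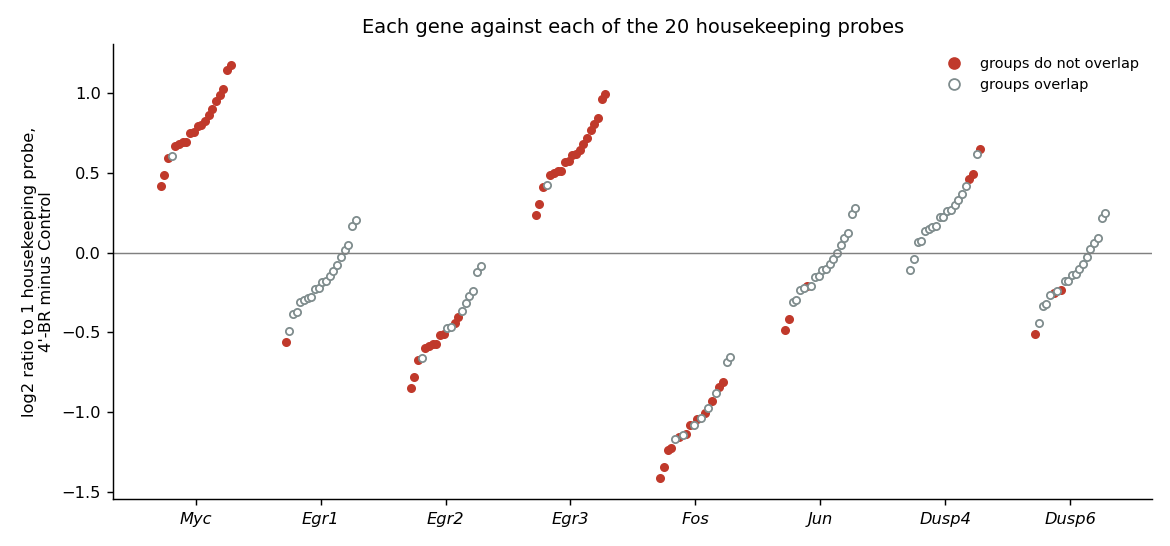
Difference in the log2 ratio of each gene to 1 housekeeping probe, 4'-BR minus Control (y axis), for the 20 housekeeping probes (points, sorted from low to high for each gene). Filled points mark probes for which the 3 4'-BR and 3 Control samples do not overlap. Myc and Egr3 are above 0 for all 20 probes, and Fos and Egr2 below 0 for all 20.

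The 3 Egr genes encode closely related zinc finger factors, and they did not lie on the same side. Egr3, which acts in lymphocyte and muscle spindle development as well as after growth stimuli, had 239, 233 and 287 scaled counts in 4'-BR against 166, 165 and 165 in Control samples. Every 4'-BR value exceeded every Control value. The means were 253 ± 29.5 in 4'-BR and 165 ± 0.498 in Control (SD, n = 3 each), a log2 fold change of 0.61 with an SE of 0.16 and an edgeR adjusted p of 0.0511, just above the threshold. The spread of the Control samples was the smallest of all 548 genes, at 0.301% of the mean, whereas the counting error of each Control value was 6.01 to 7.05%, so this SD was smaller than counting error alone. Egr3 was at −0.01 with positive control scaling, and it passed with DESeq2 (adjusted p = 0.0271, with 12.6% of all genes called), with median of ratios scaling (0.0444, with 9.85% called) and with total count scaling (0.0374, with 10.9% called).

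Egr2, a factor known for Schwann cell myelination and for restraint of T cells, had 86.0, 57.5 and 99.4 scaled counts in 4'-BR against 107, 109 and 113 in Control samples. All 3 4'-BR values lay below the Control values, the nearest by less than its counting error of 13.7%. The means were 81.0 ± 21.4 in 4'-BR and 110 ± 2.74 in Control (SD, n = 3 each), and the gene did not pass (log2 fold change −0.44, SE 0.23, edgeR adjusted p = 0.288). Without 4'-BR 2 it was at −0.25. Egr1, the growth stimulus factor most often used as a readout of Erk activity, had 550, 453 and 461 scaled counts in 4'-BR against 542, 481 and 649 in Control samples. The groups overlapped, and the log2 fold change was −0.19 with an SE of 0.17 (edgeR adjusted p = 0.511).

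Fos and Jun encode the partners of the AP-1 dimer, and their values differed in pattern. Fos had 399, 275 and 249 scaled counts in 4'-BR against 446, 416 and 1294 in Control samples. The groups did not overlap, but 4'-BR 1 and Control 2 were close, and Control 3 alone stood at 3.00 times the mean of the other Control samples. The means were 308 ± 80.2 in 4'-BR and 719 ± 499 in Control (SD, n = 3 each), with a log2 fold change of −1.21, an SE of 0.42 and an edgeR adjusted p of 0.111. Without Control 3 the log2 fold change was −0.48 (adjusted p = 0.292). Fos passed with DESeq2 (−1.22, adjusted p = 0.0197), where 12.6% of all genes passed. Jun had 325, 271 and 377 scaled counts in 4'-BR against 331, 366 and 345 in Control samples. Its 4'-BR values spanned the Control values, and the log2 fold change was −0.10 (SE 0.17, edgeR adjusted p = 0.716).

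The RefSeq promoter table (GRCm38.p6) held windows for Fos, Jun, Egr2 and Dusp6, in all 8 windows with 5 of them for Egr2. The windows of Fos, Jun and 1 Egr2 start site are shown because these genes, which growth stimuli induce, gave unlike values here. Each is the stretch of 250 bases before the start site, 5′ to 3′ on the gene's strand. Capitals mark a CArG box, to which serum response factor binds, the CRE core TGACGT read on either strand, to which factors of the CREB family bind, or TGACATCA, a variant AP-1 site known from the Jun promoter.
Fos, chr12:85473640-85473889, plus strand: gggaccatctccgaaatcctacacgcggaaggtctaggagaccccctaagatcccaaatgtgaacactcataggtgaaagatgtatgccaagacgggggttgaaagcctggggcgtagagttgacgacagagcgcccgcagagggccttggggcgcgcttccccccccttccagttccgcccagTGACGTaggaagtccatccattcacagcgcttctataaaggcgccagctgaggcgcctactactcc
Jun, chr4:95052223-95052472, minus strand: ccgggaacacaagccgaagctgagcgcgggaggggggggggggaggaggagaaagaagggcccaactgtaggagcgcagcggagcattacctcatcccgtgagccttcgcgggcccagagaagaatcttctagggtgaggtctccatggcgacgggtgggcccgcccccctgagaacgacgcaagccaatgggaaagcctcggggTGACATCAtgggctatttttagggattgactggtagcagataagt
Egr2, chr10:67537619-67537868, plus strand: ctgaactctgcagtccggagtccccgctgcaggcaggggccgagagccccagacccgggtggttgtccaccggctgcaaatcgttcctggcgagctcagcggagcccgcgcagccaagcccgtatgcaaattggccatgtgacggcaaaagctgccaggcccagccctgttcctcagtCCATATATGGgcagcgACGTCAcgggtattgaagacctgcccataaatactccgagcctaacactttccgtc
In these windows Fos held TGACGT 66 to 61 bases before the start, Jun held TGACATCA at 45 to 38 bases, and Egr2 held a CArG box at 72 to 63 bases with TGACGT on the other strand at 56 to 51 bases. A CArG box was in 4 of the 5 Egr2 windows, 3 of which overlap and share 1 box, and in none of the 3 windows of Fos, Jun and Dusp6. Bases further than 250 from a start site were not searched, so a box lying there would be missed. Both strands of 32851 mouse windows of this length were searched. The CArG box was in 1.47% of them, TGACGT in 6.47% and TGACATCA in 2.93%. The E-box CACGTG, which Myc binds, was in 1 Egr2 window and in 6.02% of all windows. The AP-1 site TGANTCA, the EGR sites GCGTGGGCG and GCGGGGGCG, and the ETS site CCGGAAGT were in none of the 8 windows and in 6.75%, 3.06% and 2.88% of all windows. No motif printed in capitals overlapped another. A match of letters is a description and not a binding site.

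Neither phosphatase gene passed the test. Dusp6, whose product acts on Erk in the cytoplasm, had 1385, 1216 and 1240 scaled counts in 4'-BR against 1266, 1694 and 1302 in Control samples. Control 2 was high and the other 5 samples lay close together, with a log2 fold change of −0.15 (SE 0.17, edgeR adjusted p = 0.592) that came to −0.0035 without Control 2. Dusp4, whose product acts on MAP kinases in the nucleus, had 484, 658 and 377 scaled counts in 4'-BR against 368, 451 and 420 in Control samples. The 4'-BR samples held the highest value and the next highest but overlapped the Control samples, and the log2 fold change was 0.29 (SE 0.21, edgeR adjusted p = 0.428). Without 4'-BR 2, the sample with the highest Dusp4, it was at 0.06. That sample also had the highest S100b, with 469, 810 and 289 scaled counts in 4'-BR against 486, 614 and 448 in Control samples, and the highest Kit, the receptor of melanoblasts and mast cells, with 23.9, 90.2 and 35.6 in 4'-BR against 33.8, 16.7 and 21.9 in Control samples. The part of these genes in the Dusp4 values was not tested.

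Ratios of 2 members within a sample do not depend on the scaling. The Myc count per Dusp6 count was 0.535, 0.515 and 0.526 in 4'-BR against 0.287, 0.248 and 0.295 in Control samples. On the log2 scale the SD was 0.03 in 4'-BR and 0.13 in Control samples, and 4'-BR lay 0.93 higher. Myc per Egr1 was 1.35, 1.38 and 1.41 in 4'-BR against 0.670, 0.874 and 0.592 in Control samples, 0.98 higher on the log2 scale. Myc was also higher without overlap relative to Jun (0.90), Egr2 (1.27) and Fos (1.83). Relative to Egr3 (0.18) and Dusp4 (0.53) the groups overlapped. As Myc was chosen with its rise known, these ratios are a description and carry no test.

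**Figure D3:**
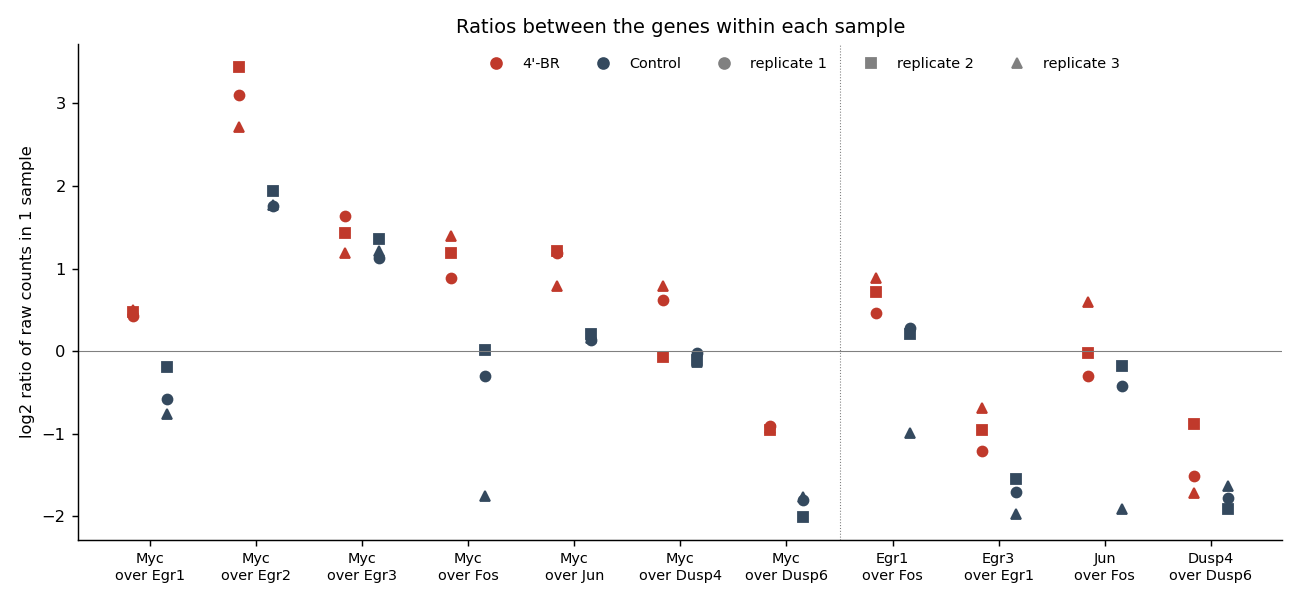
Log2 ratio of the raw counts of 2 genes in the same sample (y axis), with 3 4'-BR samples (left points of each pair) and 3 Control samples (right points) for 7 ratios with Myc on top and, right of the dotted line, 4 ratios without Myc. Myc over Dusp6 separates the groups with the 4'-BR points almost on top of each other, and Myc over Egr3 does not separate them.

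Of 4 ratios tested between members other than Myc, 2 separated the groups. Egr3 per Egr1 was 0.434, 0.515 and 0.622 in 4'-BR against 0.306, 0.342 and 0.255 in Control samples, a log2 difference of 0.79 (two-sided exact permutation p = 0.1, which is the minimum for 3 against 3 samples, and 0.2 adjusted over the 4 ratios). Egr1 per Fos was 1.38, 1.64 and 1.85 in 4'-BR against 1.21, 1.16 and 0.501 in Control samples, a log2 difference of 0.86 (exact permutation p = 0.1, adjusted 0.2) and 0.44 without Control 3. Jun per Fos (log2 difference 0.93) and Dusp4 per Dusp6 (0.40) overlapped between the groups, each with an exact permutation p of 0.2. The design cannot reach 0.05 for a single ratio.

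The MAP kinase cascade that lies between Braf and these genes showed no gene past the test. Of 18 cascade genes on the panel 17 were tested, 0 were called by edgeR or DESeq2, 2 had an unadjusted p under 0.05, and 12 had positive and 5 negative fold changes, with a median of 0.10 beside −0.04 over all genes. Mapk14, which encodes the stress kinase p38α, averaged 616 ± 52.4 in 4'-BR and 455 ± 58.5 in Control (SD, n = 3 each), a log2 fold change of 0.44 (edgeR adjusted p = 0.135). Mapk3, which encodes Erk1, was at 0.02, Map2k1 and Map2k2, the Mek genes, at −0.09 and 0.18, and Elk1, the Erk substrate that acts on Fos and Egr promoters, at −0.14 (adjusted p from 0.467 to 0.934).

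A list of 10 other genes held AP-1, CREB and NFAT family genes, the partners and relatives of Fos and Jun, and the co-activator gene Crebbp. Of the 10, 0 were called by edgeR, 4 had an unadjusted p under 0.05, and the median was 0.10. DESeq2 called 3 of them, Nfatc1 and Nfatc2 on the higher side and Creb1 on the lower. Nfatc1, a calcium-regulated factor that pairs with AP-1, was at 0.64 (244 ± 13.0 in 4'-BR and 156 ± 30.6 in Control, edgeR adjusted p = 0.0681), with Nfatc2 at 0.79 and Nfatc3 at 0.57. Creb1, which binds the CRE, was at −0.61 (243 ± 44.0 in 4'-BR and 373 ± 42.5 in Control, adjusted p = 0.072). Among 11 growth and cell cycle genes 0 were called by edgeR or DESeq2, 0 had an unadjusted p under 0.05 and 8 were negative, with a median of −0.17, and the lowest p-value belonged to Ccnd3, a D-type cyclin (−0.43, adjusted p = 0.366). Tfrc, the transferrin receptor gene and a known Myc target, was at −0.13 (adjusted p = 0.662), on the other side of 0 from Myc.

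Of 9 other early and stress-induced genes 4 fell, 0 rose and 8 were negative, with a median of −0.72. They were Il1b, Plau, Thbs1 and Cxcl2. Il1b, the cytokine interleukin-1β, had 19.1 ± 7.02 in 4'-BR and 113 ± 59.2 in Control (log2 fold change −2.53, edgeR adjusted p = 0.0356). Its level in 4'-BR 3, 11.3, lay under the highest negative probe of that sample (15.0). In 4'-BR 1 and 4'-BR 2 it was 21.0 and 24.9, above their highest negative probes (5.73 and 7.78). Plau, the urokinase protease, had 257 ± 10.6 in 4'-BR and 472 ± 89.5 in Control (−0.87, edgeR adjusted p = 0.0387). The matrix protein gene Thbs1 was at −0.72 and the neutrophil chemokine gene Cxcl2 at −2.94. The 4'-BR level of Cxcl2, 4.28 ± 1.74, lay within the negative probe means of those samples (3.46 to 7.50). Of 17 genes on an NF-κB list 2 fell, again Il1b and Cxcl2, and 0 rose, with a median of −0.00. That list held early targets and also genes of the pathway itself, such as Rela, Ikbkb and Traf2. These counts changed when single samples were left out. Over the 5 lists together 4 genes passed, against 0 without 4'-BR 1, 4'-BR 2, 4'-BR 3 or Control 1. The count was 1 without Control 2 and 4 without Control 3. Calls over all genes tested dropped too, from 38 to 0 without 4'-BR 1 or 4'-BR 2. They were 1 without 4'-BR 3 or Control 1, 7 without Control 2 and 36 without Control 3.

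By pattern over the 6 samples, the genes outside the members most like Myc were Il12rb2 (Pearson r of log2 levels 0.981), Cxcl16 (0.977), Mif (0.969), Irf3 (0.943) and Sdha (0.939), a housekeeping gene of the panel. The 6 points fall into the 2 groups, so any gene with a gap between the groups ranks high, and Egr3 (0.917) was the member most like Myc. With group means subtracted the likest genes included Hdac3 (0.987), also a housekeeping gene of the panel, and Vegfa (0.958). Dusp6 was then the likest member (0.870), and Egr3 stood at −0.155. For Fos the likest were Igf2r (0.961), C3ar1 (0.943), Ppia (0.940), Ccl17 (0.890) and Tubb5 (0.885), each with its highest value in Control 3. Ppia and Tubb5 are housekeeping genes of the panel, which set the scaling. Egr1 was the member most like Fos (0.926). With group means subtracted the genes most like Fos were Igf2r (0.962), Serpinb2 (0.954) and Irf4 (0.945), and Egr1 stood at 0.914. In each group the sample with the highest Fos, 4'-BR 1 and Control 3, also had the highest Egr1.

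Markers of other cell types moved with the groups. In bulk tumour RNA fewer cells of a type and less RNA per cell cannot be told apart. On the side of Myc, 3 of 10 tested keratinocyte and epithelial genes rose in edgeR (F2rl1, Ccl27a and Itgb4) and 0 fell, while 3 had negative fold changes. One of these was Cxcl14, a skin chemokine gene, with 1682 ± 160.4 in 4'-BR and 2517 ± 347 in Control samples without overlap (SD, n = 3 each, log2 fold change −0.58, edgeR adjusted p = 0.0635). DESeq2 called 6 of the 10, Cxcl14 lower and F2rl1, Ccl27a, Itgb4, Cdh1 and Il22ra1 higher. The summed level of the list was 7873 to 8870 in 4'-BR against 7292 to 7602 in Control samples. Krt5 and Krt14, defining keratins of the epidermis, were not analysed here. On the other side, 4 of 6 fibroblast genes fell, with a summed level of 10332 to 15346 in 4'-BR against 23234 to 31934 in Control samples. Of 11 macrophage genes 5 fell, with 4222 to 6312 in 4'-BR against 9084 to 10950 in Control samples. Of 4 neutrophil genes 2 fell, S100a8 and Itgam, of which Itgam was also listed for macrophages. The neutrophil list summed to 1232 to 1934 in 4'-BR against 2977 to 4741 in Control samples. Csf3r and Cxcr2 lay on the lower side but did not pass (edgeR adjusted p = 0.177 and 0.235). Most of each sum came from Col1a1 and Col3a1, from Lyz2, and from S100a8 (means of 1544 in 4'-BR and 3879 in Control). None of 6 tested T cell genes or 6 endothelial genes passed in edgeR or DESeq2, with 1 of each at an unadjusted p under 0.05, and 1 of 2 natural killer cell genes rose (Xcl1). Of 5 B cell markers 0 reached the minimum, and 4, among them Ms4a1, Cd79b and Blk, were at or below the highest negative probe in every sample. The part of these markers in the values of Myc, Fos and the Egr genes was not tested.

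**Figure D4:**
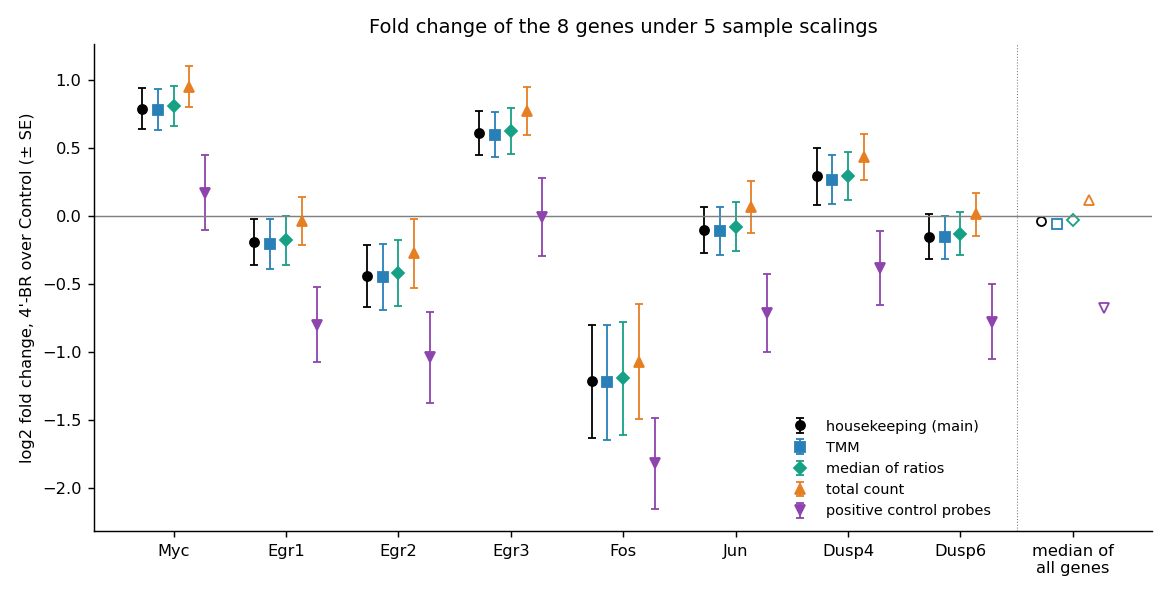
Log2 fold change, 4'-BR over Control (y axis, ± SE of the edgeR fit), of the 8 genes under 5 sample scalings, with the median of all genes tested as open symbols at the right. Values under positive control scaling lie lower for every gene, as does the median of all genes at −0.67, and Myc is the highest of the 8 under each scaling.

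The scaling moved all members together and left their order nearly as it was. Total count scaling gave Myc 0.95, Egr3 0.78 and Fos −1.07, with the median of all genes at 0.12, and turned Jun (0.069) and Dusp6 (0.0145) to the positive side. Positive control scaling called 44.5% of all genes, 0.182% higher and 44.3% lower, and 5 members lower: Fos (−1.82), Egr2 (−1.04), Egr1 (−0.80), Dusp6 (−0.78) and Jun (−0.71). It also turned Dusp4 to −0.38. Relative to the median of −0.67 there, Myc (0.17) and Egr3 (−0.01) lay above it and Fos below it. The tests of limma called 0 members, on log2 scaled counts with 1.64% of all genes called and after background subtraction with 0.547%.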

How the data were processed

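RNA of 6 tumour samples was measured, and groups and replicate numbers came from the sample titles. Nothing in the labels says that the samples came from separate mice, so a p-value reflects only how these samples spread, which may be technical. One deposited table gives a raw count for each probe, per the file headers. Another deposited table gives a normalized score, and each of its 770 values per sample was within 1 of the raw count times a factor that equalises the geometric mean of the 20 housekeeping probes. The sources used here do not give the software behind either table. Of 770 accessions 746 matched RefSeq (GRCm38.p6), all 8 members among them.

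Raw counts were fitted with edgeR 4.0.16 in R 4.3.3 (glmQLFit, glmQLFTest) with housekeeping scaling and no replicate block, on the 548 genes whose raw counts averaged 20 or more. Two-sided p-values were adjusted by Benjamini-Hochberg over these genes, and the SE was derived from the F statistic. The fit was tested on simulated data. Replicates differed by more than counting noise (chi-square over its degrees of freedom from 7.30 to 26.2). Counting errors cover counting only. Alternatives were DESeq2 1.42.0, limma 3.58.1 on log2(scaled count + 1) and on the deposited scores, other scalings, count minimums, background subtraction, thinning, a replicate block and left-out samples. The named genes were all members, the 2 genes of lowest p in each pathway list, the genes most like Myc and Fos, and others chosen after their values were seen. The motifs TGACGT and TGACATCA were chosen after the promoters were read. Some genes that this rule names, and part of the genotype, are not reported here. Members and lists were chosen with earlier results of these data known.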

Additional observations from a re-analysis of the deposited data

How the results depend on the processing

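Myc kept its sign in all 20 alternatives and passed in 11 of them, 10 with all samples. It did not pass at 0.17 with positive control scaling, at 0.79 with limma on log2 scaled counts (adjusted p = 0.0654) and on the authors' deposited table (0.065), or at 0.80 with limma after background subtraction (0.094). Leaving out single samples gave Myc 0.72 to 0.85, Egr1 −0.29 to −0.06, Egr2 −0.60 to −0.25, Egr3 0.51 to 0.66, Fos −1.49 to −0.48, Jun −0.22 to 0.0112 (positive without 4'-BR 2), Dusp4 0.06 to 0.46 and Dusp6 −0.23 to −0.0035. Other members passed with positive control scaling (Egr1 −0.80, Egr2 −1.04, Fos −1.82, Jun −0.71, Dusp6 −0.78), DESeq2 (Egr3 0.61, Fos −1.22), median of ratios (Egr3 0.63) and total count scaling (Egr3 0.78). The sign turned for Egr3 (−0.009) and Dusp4 (−0.38) with positive control scaling and for Jun (0.069) and Dusp6 (0.0145) with total count scaling. Where a cause is not given by the construction of the alternative, the cause was not tested.

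The number of genes called, 38 in the edgeR fit (7 higher, 31 lower), was 54 with TMM (16 higher, 38 lower) and with median of ratios scaling (17 higher, 37 lower), 60 with total count scaling (30 higher, 30 lower), 244 with positive control scaling (1 higher, 243 lower), 69 with DESeq2 (21 higher, 48 lower), 9 with limma on log2 scaled counts and on the deposited table, and 3 after background subtraction. It was 0 to 36 with single samples left out, with 0 in edgeR without 4'-BR 1 (107 genes at an unadjusted p under 0.05) and without 4'-BR 2 (117), 1 without 4'-BR 3 or Control 1, and 7 without Control 2. Members called numbered 2 with median of ratios and total count scaling, 5 with positive control scaling, 3 with DESeq2, 0 in the 3 limma fits, and 0 to 1 with single samples left out. Pathway list genes called, 4 in the edgeR fit, were 8 with total count scaling, 7 with DESeq2, 25 with positive control scaling, 1 with limma on scaled counts and the deposited table, 0 after background subtraction, and 0 to 4 with single samples left out. Cell type markers called, 14 in the edgeR fit, were 26 with positive control scaling, 3 with limma on scaled counts and the deposited table, 1 after background subtraction, and 0 to 10 with single samples left out.

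With the replicate number as a block, Myc was at 0.79 (adjusted p = 0.0483), Fos at −1.01 and Egr3 at 0.61 (adjusted p = 0.0984), and 30 genes passed. The labels do not say that shared numbers pair the samples. Correlations of same-numbered deviations from the group means were −0.0775, 0.0751 and 0.213. Those of samples with unlike numbers ran from −0.311 to 0.224. With 3 samples in a group these values cannot settle whether samples were paired. The log2 ratio of Egr1 over Fos ran from 0.44 to 1.08 with single samples left out, Egr3 over Egr1 from 0.66 to 0.92, Jun over Fos from 0.40 to 1.26 and Dusp4 over Dusp6 from 0.16 to 0.57. Signal over background limited none of the 8 members, as the lowest, Egr2 in 4'-BR 2, had 37 counts and a counting error of 16.4%.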

Other observations

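Il19, a cytokine gene of the interleukin-10 family made by epidermis and myeloid cells, was highest in the same sample as Fos in each group, though the order of the other samples differed in 4'-BR. It had 65.0, 12.4 and 30.0 scaled counts in 4'-BR against 27.2, 8.33 and 71.0 in Control samples, with its highest value of each group in 4'-BR 1 and Control 3, the samples of highest Fos and Egr1. Of 548 genes it stood furthest above the other samples of the group in both, and Fos ranked 2 in Control 3 and 18 in 4'-BR 1. Serpinb2, an inhibitor of urokinase, likewise peaked in 4'-BR 1 and Control 3 (537, 370 and 356 in 4'-BR against 264, 281 and 462 in Control). Neither gene differed between the groups beyond its spread in edgeR (log2 fold change 0.09 with adjusted p = 0.943 for Il19, and 0.33 with adjusted p = 0.45 for Serpinb2). Both genes were chosen after their values were seen.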
